A study of Mus musculus with 8 samples.

Results

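The galectins are 6 genes, Lgals1, Lgals3, Lgals4, Lgals7, Lgals8 and Lgals9, described here in mouse 3T3-L1 preadipocytes with and without a knockdown of Fto. They are the entries of that name among 23699 gene entries in each library. They were chosen with their FPKM (fragments relative to transcript length and sequencing depth) in these same libraries in view, so the difference between the groups is described for them with no p-value, and their counts past the threshold are given only to stand beside those of all genes. The cells had received 1 of 2 treatments, each in 4 libraries: a mix of 3 siRNAs against Fto, or control siRNAs. Both groups were 3T3-L1 cells, an established mouse fibroblast line that can become adipocytes, transfected at 40 nM for 24 hours before confluence and collected 2 days past confluence. They had not been induced to differentiate, and no other gene was altered according to the labels. A single line in culture stands for preadipocytes here. All means and SDs are over n = 4 libraries.

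Galectins are small lectins that bind sugars carrying galactose, through a carbohydrate recognition domain that all of them share. They are made in the cytosol, leave the cell without a signal peptide, cross-link glycoproteins at the surface, and inside the cell also bind glycans exposed when endosomes or lysosomes break. Lgals1 and Lgals7 encode the prototype form with a single domain, Lgals3 a single domain behind a flexible tail, and Lgals4, Lgals8 and Lgals9 a pair of different domains in tandem.

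The coding stretch at the heart of the domain is shown because the tandem members carry it in 2 copies and to set the letters of the members side by side. It was found by a search for a histidine, any residue, an asparagine, a proline and any residue, then 8 to 30 codons, then a tryptophan, any 2 residues and a glutamate. The sequences are from the GENCODE M21 annotation of GRCm38, 5′ to 3′ on the coding strand. Capitals mark the first 15 bases, which begin with the codon of the conserved histidine, and the last 18 bases, which begin with that of the conserved tryptophan.
Lgals1, chr15:78929676-78929765, plus strand: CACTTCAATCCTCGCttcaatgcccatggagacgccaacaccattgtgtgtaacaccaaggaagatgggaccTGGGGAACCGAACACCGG
Lgals7, chr7:28865586-28865663, plus strand: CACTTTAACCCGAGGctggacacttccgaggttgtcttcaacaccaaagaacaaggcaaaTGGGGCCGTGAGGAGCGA
Lgals3, chr14:47384642-47384728, plus strand: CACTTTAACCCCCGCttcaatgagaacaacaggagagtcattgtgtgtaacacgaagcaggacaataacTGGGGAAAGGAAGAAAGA
Lgals4 first copy, chr7:28835879-28835959, plus strand: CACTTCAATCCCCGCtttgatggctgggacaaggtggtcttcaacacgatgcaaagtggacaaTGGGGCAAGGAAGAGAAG
Lgals4 second copy, chr7:28841191-28841265, plus strand: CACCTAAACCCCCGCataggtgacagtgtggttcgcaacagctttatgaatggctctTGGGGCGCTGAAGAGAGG
Lgals8 first copy, chr13:12454807-12454887, minus strand: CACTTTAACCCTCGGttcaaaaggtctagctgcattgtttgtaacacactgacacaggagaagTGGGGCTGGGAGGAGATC
Lgals8 second copy, chr13:12447189-12447266, minus strand: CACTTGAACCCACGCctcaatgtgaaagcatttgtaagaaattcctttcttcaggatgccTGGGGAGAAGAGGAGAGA
Lgals9 first copy, chr11:78973060-78973140, minus strand: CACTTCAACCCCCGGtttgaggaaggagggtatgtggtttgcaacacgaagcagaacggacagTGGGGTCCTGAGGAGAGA
Lgals9 second copy, chr11:78965737-78965814, minus strand: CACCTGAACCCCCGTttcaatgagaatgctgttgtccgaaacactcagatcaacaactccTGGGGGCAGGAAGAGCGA

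The search found 1 copy in Lgals1, Lgals3 and Lgals7 and 2 copies in Lgals4, Lgals8 and Lgals9. Of the 33 bases in capitals, 17 were the same in all 9 stretches, and any pair shared 20 to 27 of them. The search required the histidine, asparagine, proline, tryptophan and glutamate codons that lie in the capitals. Part of this likeness was therefore set by the search, and it is no measure of likeness over whole transcripts. In the capitals the likeness did not follow the classes. The stretches of Lgals1 and Lgals7, both prototype, shared 20 bases, and those of Lgals7 and the first copy of Lgals9 shared 27. The longest run of bases shared exactly by the transcripts of any 2 members was 17 bases, between Lgals3 and Lgals8. The coding sequences were 135 residues long for Lgals1, 136 for Lgals7, 264 for Lgals3, 326 for Lgals4, 325 for Lgals8 and 353 for Lgals9.

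The knockdown was checked first. Fto, which encodes a dioxygenase that removes methyl groups from nucleic acids, had 13.8, 10.7, 12.3 and 11.6 FPKM with Fto siRNA and 54.6, 55.4, 56.2 and 55.2 FPKM with control siRNA. The mean was 78.1% lower with Fto siRNA, a log2 difference of -2.15 ± 0.0631 (SE; limma adjusted p = 7.3e-08; exact two-sided permutation p = 0.0286, the smallest that 70 arrangements allow). The libraries summed to 454737 to 484842 FPKM and held 11351 to 11397 entries at 1 FPKM or more. Control siRNA replicate 3 stood furthest from its group, with a median absolute deviation of 0.0703 on the log2 scale against 0.0382 to 0.0525 in the other libraries. Of 12 preadipocyte and fibroblast markers, 11 had a mean of at least 1 FPKM over the 8 libraries, and the levels of the 12 summed to 11680 to 13065 FPKM with Fto siRNA and 10710 to 11270 FPKM with control siRNA. Collagens and Vim made up most of these sums. Pdgfra, at a mean of 208 FPKM with Fto siRNA and 240 FPKM with control siRNA, and Pdgfrb, at 62.9 FPKM with Fto siRNA and 69.3 FPKM with control siRNA, went the other way without overlap. Ly6a, Dpt and Thy1 were higher with Fto siRNA, also without overlap. Their means were 227, 159 and 197 FPKM with Fto siRNA and 147, 96.1 and 161 FPKM with control siRNA.

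All 6 galectins were expressed, at levels that differed widely between genes. FPKM is scaled by length, so the levels of different genes can be set in order. Over the 8 libraries the mean was 2023 FPKM for Lgals1, 108 for Lgals9, 51.7 for Lgals3, 26.7 for Lgals8, 8.49 for Lgals4 and 5.86 for Lgals7. Lgals1 was 18.7 times as high as Lgals9, held 89.8 to 91.6% of the galectin FPKM of a library, and ranked between place 10 and place 12 among all genes. The ranges of neighbouring genes did not overlap down to Lgals4. Lgals4 and Lgals7 overlapped with Fto siRNA, where Lgals4 was the higher in 2 of 4 libraries, and not with control siRNA, where it was the higher in 4 of 4. The 6 genes together summed to 2276, 2179, 2260 and 2357 FPKM with Fto siRNA and 2052, 2084, 2432 and 2151 FPKM with control siRNA, so the groups overlapped.

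**Figure D1:**
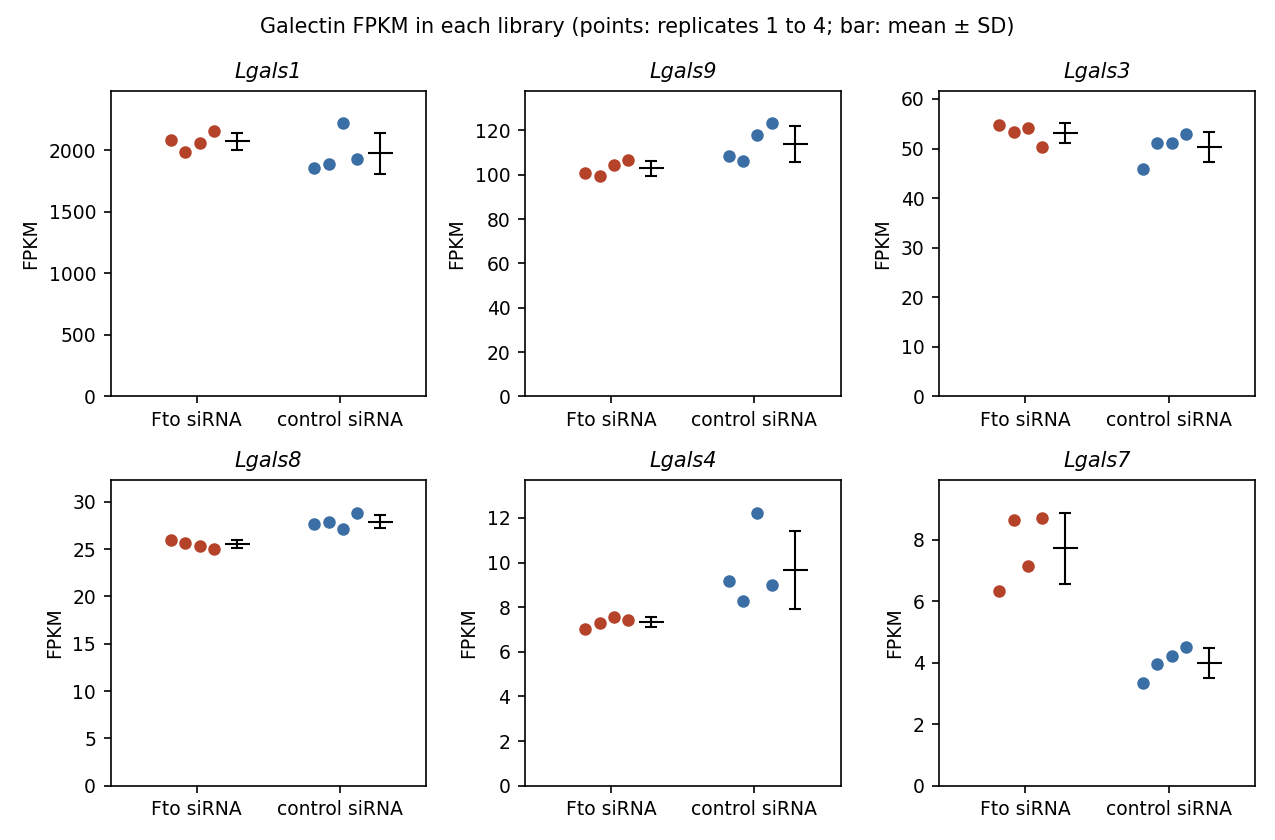
FPKM of each galectin in each library (vertical axes in FPKM, 1 panel per gene), with Fto siRNA left of control siRNA; points are libraries and bars give the mean and SD of 4. The groups are apart for Lgals7, Lgals4 and Lgals8 and overlap for Lgals1, Lgals3 and Lgals9.

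Among the prototype members, Lgals7 was higher with Fto siRNA and Lgals1 overlapped between the groups. Lgals7 (mm9 chromosome 7, 29649405 to 29651303) encodes a galectin best known from stratified epithelia such as the epidermis. It had 6.34, 8.66, 7.16 and 8.73 FPKM with Fto siRNA and 3.35, 3.95, 4.21 and 4.5 FPKM with control siRNA. Every Fto siRNA library was above every control library. The means were 7.72 ± 1.17 FPKM with Fto siRNA and 4.00 ± 0.487 FPKM with control siRNA, a ratio of 1.93 and a log2 difference of 0.86 ± 0.109 (SE) on the log2(FPKM + 0.5) scale, on which changes of weakly expressed genes look smaller than they are. It was also the least deeply measured member: the deposited intervals correspond to 53, 70, 52 and 72 fragments with Fto siRNA and 27, 37, 33 and 40 fragments with control siRNA. Those intervals cover counting error only. They ran from 4.6 to 10.8 FPKM over the Fto siRNA libraries and from 2.06 to 5.92 FPKM over the controls. The intervals of the groups therefore overlapped.

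Lgals7 is known from epithelia, so markers of stratified epithelium were read beside it. Of 10 such markers, 2 had a mean of at least 1 FPKM over the 8 libraries. They were Trp63, at a mean of 5.22 FPKM with Fto siRNA and 4.69 FPKM with control siRNA, and Krt10. Krt10 averaged 2.39 FPKM with Fto siRNA and 2.12 FPKM with control siRNA, and both markers overlapped between the groups. Krt1, Epcam and Dsg3 were listed at 0 in all 8 libraries. The levels of the 10 summed to 8.01 to 8.60 FPKM with Fto siRNA and 7.86 to 9.08 FPKM with control siRNA, ranges that overlap. Trp63 and Krt10 made up most of these sums. Krt14, a basal keratin, was listed at 0 in the 4 Fto siRNA libraries and had 0.684 to 1.29 FPKM in the controls. In bulk libraries, fewer cells of a type and less RNA per cell cannot be told apart.

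Lgals1 (mm9 chromosome 15, 78757155 to 78760895) encodes the galectin typical of fibroblasts and other mesenchymal cells. It had 2081, 1984, 2062 and 2159 FPKM with Fto siRNA and 1857, 1886, 2219 and 1933 FPKM with control siRNA. Control replicate 3 was the highest of the 8 libraries and the other 3 controls were the lowest. The means were 2071 ± 72.0 FPKM with Fto siRNA and 1974 ± 167 FPKM with control siRNA, a log2 difference of 0.07 ± 0.0622 (SE), or 0.13 without control replicate 3.

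Lgals3 (mm9 chromosome 14, 47993535 to 48005842), the member with the flexible tail and a classical macrophage antigen, differed little. It had 54.7, 53.3, 54.2 and 50.3 FPKM with Fto siRNA and 45.9, 51.2, 51.0 and 53.0 FPKM with control siRNA. The lowest Fto siRNA library lay below 3 of the controls, so the groups overlapped. The means were 53.1 ± 1.96 FPKM with Fto siRNA and 50.3 ± 3.08 FPKM with control siRNA, a log2 difference of 0.08 ± 0.0481 (SE). Of 10 macrophage markers, 3 had a mean of at least 1 FPKM over the 8 libraries, and Emr1 and Tyrobp were listed at 0 throughout. The sums were 21.1 to 22.2 FPKM with Fto siRNA and 22.6 to 29.6 FPKM with control siRNA. Lyz2 and Cd14 made up most of them. Lyz2 averaged 11.6 FPKM with Fto siRNA and 16.7 FPKM with control siRNA. The means of Cd14 (7.49 and 7.16 FPKM), Cd68 (1.20 and 0.974 FPKM) and Csf1r (0.933 and 0.672 FPKM) went the other way, Csf1r without overlap.

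The 3 tandem members were lower on average with Fto siRNA. Lgals8 (mm9 chromosome 13, 12531682 to 12554005) encodes a sensor of damaged endosomes. It had 26.0, 25.6, 25.4 and 25.0 FPKM with Fto siRNA and 27.7, 27.9, 27.2 and 28.9 FPKM with control siRNA. The groups did not overlap, and the spread within each was the smallest of the 6 genes, with coefficients of variation of 1.68% with Fto siRNA and 2.56% with control siRNA. The deposited intervals, which cover counting error only, reached 4.76 to 5.67% either side of a value. They ran from 23.6 to 27.3 FPKM over the Fto siRNA libraries and from 25.7 to 30.2 FPKM over the controls, so the intervals of the groups overlapped. The means were 25.5 ± 0.429 FPKM with Fto siRNA and 27.9 ± 0.713 FPKM with control siRNA, a ratio of 0.914 and a log2 difference of -0.13 ± 0.0329 (SE).

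Lgals9 (mm9 chromosome 11, 78776481 to 78798426) encodes an immune-modulating galectin that also acts at damaged lysosomes. It had 101, 99.6, 104 and 107 FPKM with Fto siRNA and 108, 106, 118 and 123 FPKM with control siRNA. The highest Fto siRNA library was above the lowest control, so the groups overlapped by a single pair. The means were 103 ± 3.17 FPKM with Fto siRNA and 114 ± 8.02 FPKM with control siRNA, a log2 difference of -0.15 ± 0.0497 (SE).

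Lgals4 (mm9 chromosome 7, 29618813 to 29626722) encodes a galectin of the intestinal epithelium that helps sort proteins to the apical surface. It had 7.02, 7.28, 7.54 and 7.41 FPKM with Fto siRNA and 9.16, 8.29, 12.2 and 8.99 FPKM with control siRNA. All 4 Fto siRNA libraries lay below all 4 controls, and control replicate 3 was the highest. The means were 7.31 ± 0.225 FPKM with Fto siRNA and 9.67 ± 1.75 FPKM with control siRNA, a ratio of 0.756 and a log2 difference of -0.37 ± 0.0978 (SE), or -0.25 without control replicate 3. Of 7 intestinal markers none had a mean of 1 FPKM or more over the 8 libraries, with sums of 0.303 to 0.662 FPKM with Fto siRNA and 0.230 to 0.452 FPKM with control siRNA.

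Lgals4 is also the member whose reads are least certain. The entry Lgals6, a close copy of Lgals4, lies inside its locus, and it had 2.19, 0.680, 0.219 and 3.78e-06 FPKM with Fto siRNA and 0.589, 0.990, 4.54e-05 and 4.61e-06 FPKM with control siRNA. The split of reads between the 2 entries therefore varied within each group. Their sum was 9.21, 7.96, 7.76 and 7.41 FPKM with Fto siRNA and 9.75, 9.28, 12.2 and 8.99 FPKM with control siRNA, and on the sum the groups overlapped, with a log2 difference of -0.29. The sum was added after the values had been seen.

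Lgals4 and Lgals7 lie close together on chromosome 7 and differed in opposite directions. The ratio of Lgals7 to Lgals4 FPKM was 0.904, 1.19, 0.949 and 1.18 with Fto siRNA and 0.366, 0.477, 0.344 and 0.5 with control siRNA. The ratio was higher in each Fto siRNA library than in each control, which follows from the values that chose the genes.

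Across all 11398 genes tested, limma called 6.97% higher and 12.3% lower with Fto siRNA at an adjusted p under 0.05, 794 and 1401 genes, or 19.3% in either direction. Other scalings moved that split to 1086 higher and 1218 lower with median-ratio scaling, and to 1086 and 1207 with quantile normalization. In the same fit 1 galectin passed the threshold as higher (Lgals7), 2 as lower (Lgals4 and Lgals8) and 3 did not pass. The median log2 difference was -0.03 over the galectins and -0.02 over all genes. Groups did not overlap for 9.08% of all genes on the higher side and 15.1% on the lower, and for 1 and 2 galectins. Since the contrast chose the genes, nothing is read from these counts. Lgals4 did not pass without Fto siRNA replicate 1, 2 or 4, and Lgals8 did not pass without Fto siRNA replicate 3 or 4 or control replicate 2 or 4. The count of lower galectins was thus 0 without Fto siRNA replicate 4, 1 without Fto siRNA replicate 1, 2 or 3 or control replicate 4, and 2 without control replicate 2, where Lgals9 passed. The count of higher ones was 2 without control replicate 3, where Lgals1 also passed.

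**Figure D2:**
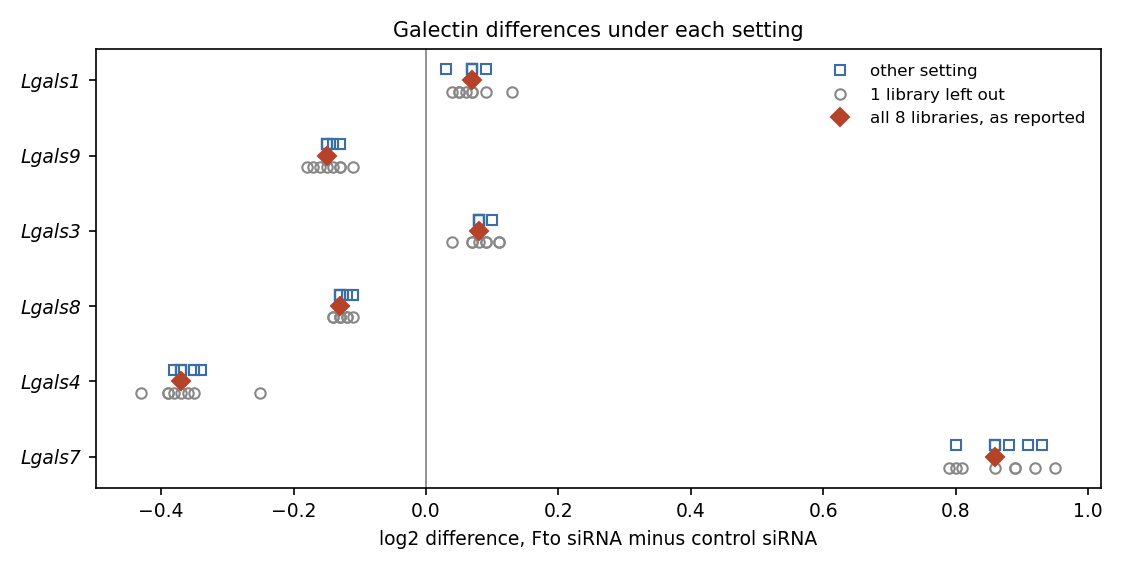
Log2 difference of each galectin, Fto siRNA minus control siRNA (horizontal axis), as reported (diamonds), under other settings (squares) and with 1 library left out (circles). Each gene keeps its sign, and Lgals4 spans -0.43 to -0.25, the nearest to 0 being the value without control replicate 3.

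By likeness of the pattern over the 8 libraries, measured as the root mean square difference of log2 values centred on each gene's mean, the gene nearest to Lgals7 was Agt, which encodes angiotensinogen, at 0.122, followed by S100b, a calcium-binding protein, at 0.127. The median distance of all genes from Lgals7 was 0.475. Nearest to Lgals4 were Syn2 at 0.0651 and Dpep1 at 0.0829, against a median of 0.238. Syn2 lay close to the filter of 1 FPKM, at a mean of 0.845 FPKM with Fto siRNA and 1.24 FPKM with control siRNA. Nearest to Lgals8 were Pdgfrb, a growth factor receptor of mesenchymal cells, at 0.0150 and Metap1 at 0.0186. For Lgals1 they were Pmepa1 and Ndufb9, for Lgals3 Nkiras2 and Larp6, and for Lgals9 Abcb8 and Schip1, at 0.0233 to 0.0324. These distances are descriptions over libraries that include the contrast.

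Of 6 other entries listed with the galectin family, 2 passed the filter of a mean of 1 FPKM. Both fell (100%, beside 12.3% of all genes), with a median log2 difference of -0.43. As only 2 entries were tested, this does not speak for the family. Lgals3bp, a secreted glycoprotein bound by galectins, is not itself a galectin and is also counted among the extracellular partners below. It had 71.6, 72.1, 64.0 and 70.3 FPKM with Fto siRNA and 89.1, 85.8, 97.0 and 118 FPKM with control siRNA. The groups did not overlap, and the log2 difference was -0.48 ± 0.0879 (SE; limma adjusted p = 0.0050). 1110067D22Rik, an older name of Lgalsl, which encodes a galectin-related protein, averaged 23.1 ± 0.714 FPKM with Fto siRNA and 30.4 ± 0.884 FPKM with control siRNA, a log2 difference of -0.39 (limma adjusted p = 0.00013). Lgals12, the galectin of adipocyte lipid droplets, was below the filter, at 0.0376 to 0.0908 FPKM with Fto siRNA and 0.103 to 0.291 FPKM with control siRNA. Lgals2 was also below it, at 0.857 ± 0.264 FPKM with Fto siRNA and 0.686 ± 0.201 FPKM with control siRNA.

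**Figure D3:**
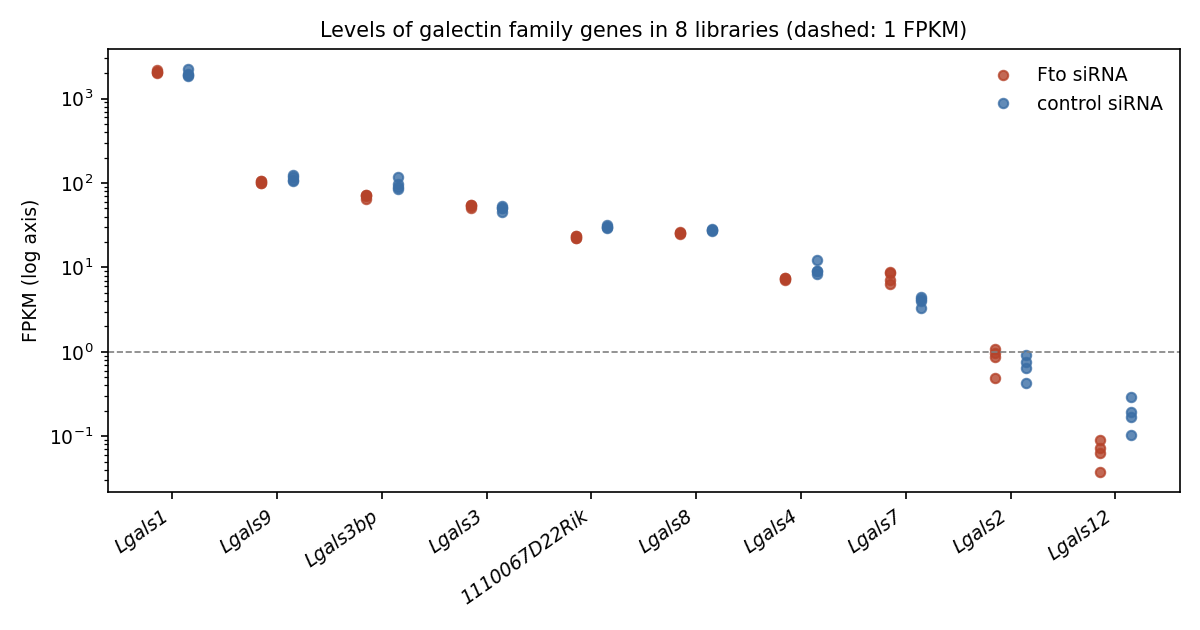
FPKM of the galectins and of Lgals3bp, 1110067D22Rik, Lgals2 and Lgals12 by library on a log axis, Fto siRNA beside control siRNA. Lgals1 stands above all others, at 1857 to 2219 FPKM, and Lgals12 lies below 1 FPKM in every library; Lgals6 and Grifin are not drawn.

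Most of the listed genes of glycan synthesis did not pass the test, and those that did lay in both directions. The list also holds the sugar transporters Slc35a2 and Slc35a3 and the galactosidase Glb1, so not every entry builds a galectin ligand. Of 35 listed genes 30 were tested, 5 rose (16.7%, beside 6.97% of all genes), 5 fell (16.7%, beside 12.3%) and 20 did not pass. The median log2 difference was -0.01. B4galt1, which adds the galactose of N-acetyllactosamine, the unit galectins bind, had 34.6, 34.1, 35.3 and 33.5 FPKM with Fto siRNA and 49.3, 48.1, 49.7 and 48.5 FPKM with control siRNA. It was lower in all 4 libraries, by a log2 difference of -0.50 ± 0.0310 (SE; limma adjusted p = 9e-06). C1galt1, which makes the core of common O-glycans, fell by 0.30 on the log2 scale (limma adjusted p = 0.0016), and St3gal1, which caps that core with sialic acid, fell by 0.20 (limma adjusted p = 0.0041). St3gal5, the synthase of the ganglioside GM3, rose by 0.25 (limma adjusted p = 0.0030), Mgat4b, which branches N-glycans, by 0.20 (limma adjusted p = 0.014), and St3gal2, a sialyltransferase, by 0.13 (limma adjusted p = 0.016). Mgat5, whose branches are favoured galectin-3 ligands, averaged 3.50 ± 0.441 FPKM with Fto siRNA and 3.16 ± 0.428 FPKM with control siRNA and did not pass (limma adjusted p = 0.429). St3gal5 overlaps the entry 4933431G14Rik and B4galt1 overlaps Mir5123, and the reads of such pairs cannot be assigned to either gene with certainty.

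Among glycoproteins that galectins bind outside the cell, 27 of 36 were tested, 6 rose (22.2%, beside 6.97% of all genes), 5 fell (18.5%, beside 12.3%) and 16 did not pass, with a median log2 difference of 0.04. Cd44, the hyaluronan receptor, had 46.5, 51.0, 49.8 and 47.3 FPKM with Fto siRNA and 37.2, 37.7, 36.5 and 38.0 FPKM with control siRNA. It was higher in all 4 libraries, by 0.37 ± 0.0371 on the log2 scale (SE; limma adjusted p = 0.00016). Itgb3, an integrin subunit, rose by 0.34 (limma adjusted p = 0.00074), Thy1, a surface glycoprotein of fibroblasts, by 0.29 (limma adjusted p = 0.0022) and Itgb1, the common integrin subunit, by 0.18 (limma adjusted p = 0.0092). Lgals3bp, given above, fell, as did Itga1, a collagen-binding integrin subunit that overlaps Pelo, by 0.29 (limma adjusted p = 0.0095), and Nrp1, a receptor for semaphorins that overlaps Mir1903, by 0.20 (limma adjusted p = 0.0099). Lamp1, a heavily glycosylated lysosomal membrane protein, averaged 580 ± 22 FPKM with Fto siRNA and 565 ± 14.1 FPKM with control siRNA and did not pass (limma adjusted p = 0.574).

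Of 13 intracellular partners, all tested, 2 rose (15.4%, beside 6.97% of all genes), 1 fell (7.69%, beside 12.3%) and 10 did not pass, with a median log2 difference of 0.06. Pdcd6ip, which encodes the ESCRT-associated protein ALIX, rose by 0.16 (limma adjusted p = 0.0098). Anxa7, an annexin, fell by 0.13 (limma adjusted p = 0.027), and it did not pass without Fto siRNA replicate 1, 2 or 4 or control replicate 4, where the adjusted p was 0.0597 to 0.0732.

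In the response to damaged endosomes and lysosomes, 25 of 27 listed genes were tested, 1 rose (4.0%, beside 6.97% of all genes), 4 fell (16.0%, beside 12.3%) and 20 did not pass, with a median log2 difference of 0.00. Becn1, a subunit of the lipid kinase complex that starts autophagy, had 25.4, 22.3, 24.1 and 23.1 FPKM with Fto siRNA and 40.4, 43.7, 46.6 and 43.0 FPKM with control siRNA. The groups were far apart, with a log2 difference of -0.86 ± 0.0522 (SE; limma adjusted p = 8.2e-06), and Becn1 overlaps Cntd1. Gabarapl1, an autophagosome protein that overlaps 1700101I11Rik, fell by 0.31 (limma adjusted p = 0.00031), and Prkaa1, a catalytic subunit of AMP-activated kinase, by 0.15 (limma adjusted p = 0.014). Atg16l1, part of the machinery that attaches such proteins to membranes, rose by 0.17 (limma adjusted p = 0.014) and overlaps Scarna6. Without control replicate 3 the count of genes that rose was 2. Trim16, which works with galectin-3 at damaged membranes, averaged 11.9 ± 0.835 FPKM with Fto siRNA and 12.7 ± 0.166 FPKM with control siRNA (limma adjusted p = 0.22). Calcoco2, the receptor that human galectin-8 recruits, was listed at 0 in all 8 libraries.

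**Figure D4:**
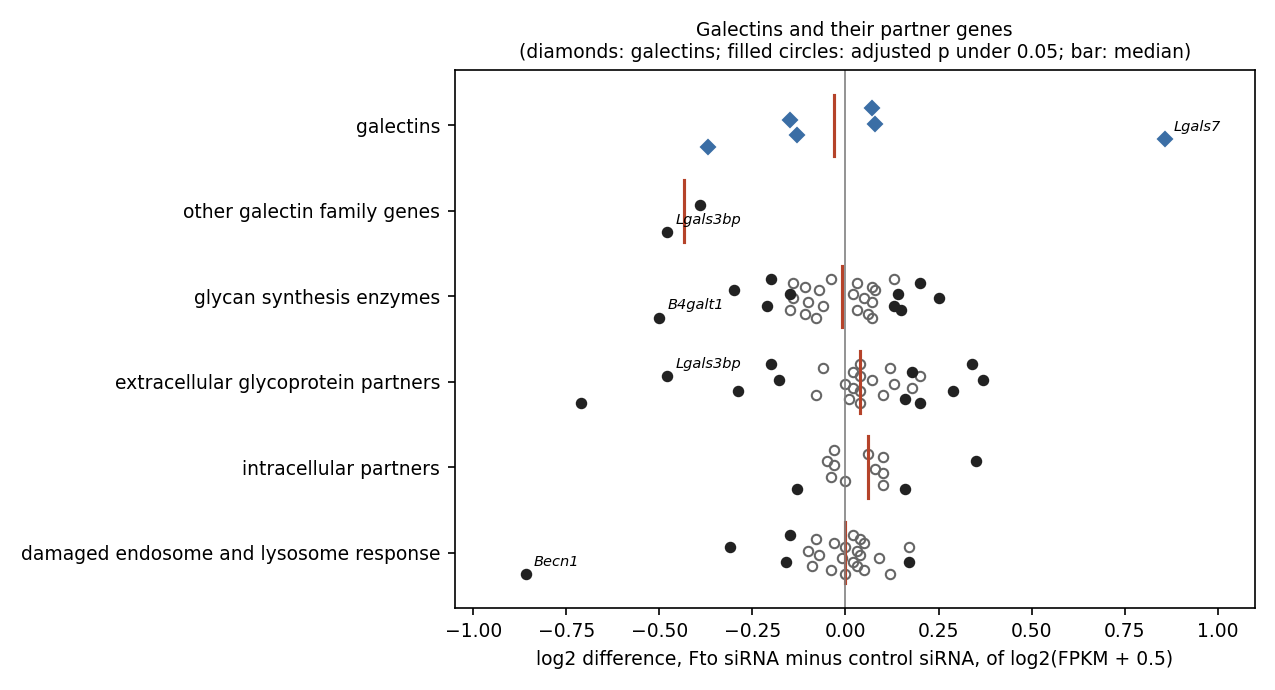
Log2 difference, Fto siRNA minus control siRNA (horizontal axis), of each galectin (diamonds, with no call shown) and each tested gene of the 5 lists (circles, filled where the limma adjusted p is under 0.05); bars are medians. The list medians lie between -0.43 and 0.06, and Lgals7 and Becn1 are the points farthest from 0.

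The 3′ UTRs were searched on the transcript strand for the overlapping words GACCTTA and ACCTTAA, which had been picked earlier on these same libraries because genes that carry them were lower with Fto siRNA. None of the 6 galectins held either word. Among all searched genes 1337 of 9781 did (13.7%), so 0 of 6 is close to that share and nothing is read from it. A word was held by 342 of 1233 genes that fell (27.7%) and by 64 of 707 that rose (9.05%). That difference follows from how the words were picked. Of the genes that fell, 1 of 2 listed with the galectin family, 3 of 5 glycan enzymes and 1 of 5 extracellular partners held a word. Among intracellular partners 0 of 1 held one, and among damage-response genes 2 of 4. Of those that rose, 1 of 5 glycan enzymes did, and none in the other lists. Fto itself holds a word. For genes named from the lists that fell and hold a word, the sites are printed for their letters only. The site in Fto is not printed. B4galt5 and Lamc1, named after their values were seen, also fell and hold one. Capitals mark the words, and the bases are from the GENCODE M21 annotation of GRCm38.
Lgalsl: gtgctaaaGACCTTAAaaacaaca
B4galt1: gaataaatGACCTTAtctttgta
C1galt1: attaccaaGACCTTAAagtgtgta
Gabarapl1: aattgcttACCTTAAaagtctac
Prkaa1: tcctcataGACCTTAttagataa

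Among the named genes, Becn1, Lgals3bp, St3gal1, Itga1, Nrp1 and Anxa7 fell without holding a word, and St3gal2 held one and rose. A match is a description of the letters and no measure of binding.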

How the data were processed

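RNA of 8 libraries was sequenced, 4 with Fto siRNA and 4 with control siRNA, per the labels. The submitters' processing notes name TopHat2 2.0.11, Cufflinks 2.2.1 and the build mm9. The values deposited by the authors are FPKM for each gene and library with an interval, per the file headers. They are not counts, so no count test was run. Fragments behind a value were worked out from the interval, taken as 2 standard errors either side. Strandedness was not given in the sources used here. No label says that replicates came from separate cultures. A p-value therefore reflects the spread between these 8 samples alone, and that spread may be technical.

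Groups were compared on log2(FPKM + 0.5) for genes with a mean of at least 1 FPKM over the 8 libraries, with limma 3.58.1 (R 4.3.3) with a variance trend, in a two-sided test. P-values were adjusted by the Benjamini-Hochberg method over the 11398 genes, and 0.05 was the threshold. The members and lists were chosen with earlier results of these data known. Named were the 6 galectins, Fto, up to 3 genes per direction and list with the lowest p, 8 genes whatever their values, and the 2 genes most like each galectin. A gene that the rule names is not reported here. Loci are as deposited, in mm9. Sequences came from GENCODE M21 and were used for letters only. Alternatives were other pseudocounts, filters, scalings and variance models, each library left out, and a replicate block. The fit was tested on simulated data. Python 3.11.15 with pandas 2.3.3 and matplotlib 3.10.9 was used for the rest.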

Additional observations from a re-analysis of the deposited data

Results flagged for a closer look

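Grifin, which encodes a galectin-related protein of the lens, stood out in a single library: control siRNA replicate 3 had 0.30003 FPKM and the other 3 controls were listed at 0. With Fto siRNA it was listed at 0, 0.145, 0.162 and 0 FPKM, so the gene was below the filter in both groups. It was 1 of 70 groups of 4 libraries examined over 36 genes. With the other 3 controls at 0, any value above 0 would have stood apart, so the usual chance rate of about 1 in 20 does not apply to this group.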

How the results depend on the processing

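The signs of the 6 galectin differences held under all 16 other settings: 0.79 to 0.95 for Lgals7, -0.43 to -0.25 for Lgals4, -0.14 to -0.11 for Lgals8, -0.18 to -0.11 for Lgals9, 0.04 to 0.11 for Lgals3 and 0.03 to 0.13 for Lgals1. The count of lower galectins was 1 with no filter, where Lgals4 did not pass, and 1 with median-ratio scaling and with quantile normalization, where Lgals8 did not. In all, Lgals4 did not pass under 4 of the 16 settings and Lgals8 under 7, and Lgals7 passed under all 16. With no filter the count of extracellular partners that fell was 3, and with either scaling 2 genes of the damage response rose. The cause was not tested. Leaving out 1 library gave 550 to 941 higher and 992 to 1433 lower genes, 1 to 2 higher and 0 to 2 lower galectins, 0 to 1 intracellular partners that fell and 1 to 2 damage-response genes that rose. Libraries with the same replicate number did not deviate together more than others did (correlations -0.19 to 0.0736, beside -0.178 to 0.176 for different numbers). Deviations from means of 4 libraries cannot exclude that the numbers pair them. With the replicate block 628 genes were higher and 1133 lower, and Lgals9 passed the threshold while Lgals8 did not. Lgals4 and Lgals7 are limited by depth, at 164 to 303 and 27 to 72 fragments per library. For Lgals4 these are the fragments assigned to its own entry, without any assigned to Lgals6.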
